A study of Mus musculus with 8 samples.

Results

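The lipoprotein lipase system and the fatty acid uptake genes that act after it were examined as 9 genes taken by name: Lpl, Gpihbp1, Lmf1, Angptl4, Cd36, Fabp4, Fabp5, Slc27a1 and Slc27a4. All 9 were found in the deposited table of 19348 genes, and all 9 passed the filter on low counts in both tissues. RNA was sequenced from liver and from epididymal white adipose tissue (eWAT), a visceral fat depot attached to the epididymis, in male C57BL/6 mice aged 12 weeks on a normal diet that were killed after 16 h of fasting. Crtc1-/- mice, made to lack the CREB coactivator Crtc1 in the whole body by CRISPR/Cas9 editing at exons 2 and 4, were compared with Crtc1+/+ mice. Each combination of tissue and genotype had 2 libraries, and the study's methods give 2 mice a genotype, so every test below measures the spread between 2 libraries a group.

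Lipoprotein lipase, the product of Lpl, hydrolyses the triglycerides of circulating chylomicrons and very low density lipoproteins at the capillary wall. It is folded in the parenchymal cell with the help of the endoplasmic reticulum protein Lmf1, is carried to the capillary lumen by the endothelial protein Gpihbp1, and is inactivated by the secreted protein Angptl4, which is known to rise in fat during fasting. The released fatty acids are taken up with the help of the scavenger receptor Cd36 and the acyl-CoA synthetases Slc27a1 (FATP1) and Slc27a4 (FATP4), and are bound inside the cell by Fabp4, the major fatty acid binding protein of adipocytes, and the related Fabp5. Adult liver normally makes little Lpl.

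Of the members, 4 were targets of the study's quantitative PCR primers, which are shown because they mark stretches of these transcripts that a second assay read. Positions were found by matching to GRCm38 transcripts, and each pair matched no other gene.
Lpl forward: ttgccctaaggacccctgaa
Lpl reverse: ttgaagtggcagttagacacag
Cd36 forward: gactgggaccattggtgatga
Cd36 reverse: aaggccatctctaccatgcc
Fabp4 forward: ccgcagacgacagga
Fabp4 reverse: ctcatgccctttcataaact
Slc27a1 forward: tgcacagcaggtactaccgcat
Slc27a1 reverse: tgcgcagtaccaccgtcaac
Both Lpl primers lay in coding sequence of exon 2, between chr8:68887476 and chr8:68887563, and enclosed 88 nt. The Cd36 pair enclosed 90 nt of coding sequence and the Slc27a1 pair 159 nt, and in both pairs the forward primer crossed an exon junction. The Fabp4 pair enclosed 177 nt from exon 2 to exon 4, with a reverse primer that was not wholly coding. The genes themselves lie on 6 chromosomes: Lpl at chr8:68880491-68907448 and Slc27a1 at chr8:71568882-71587302, both on the plus strand, Fabp5 at chr3:10012548-10016607 (plus) on the same chromosome as Fabp4 at chr3:10204088-10208576 (minus), Lmf1 at chr17:25579085-25662826 (plus) and Angptl4 at chr17:33773750-33781830 (minus), Gpihbp1 at chr15:75596628-75599481 (plus), Cd36 at chr5:17781690-17888801 (minus) and Slc27a4 at chr2:29802634-29817522 (plus). No other annotated gene overlapped any of these spans.

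Promoter sequence from RefSeq (GRCm38.p6) was found for 4 of the 9 members, Lmf1, Cd36, Slc27a1 and Slc27a4, and not for Lpl, Gpihbp1, Angptl4, Fabp4 and Fabp5. The 250 bases before the start site are shown for Cd36 (chr5:17835897-17836146, minus strand) and for the related transporters Slc27a1 (chr8:71568621-71568870, plus strand, the first of its 3 starts) and Slc27a4 (chr2:29802384-29802633, plus strand), because these paralogs parted from each other in eWAT. Capitals mark matches, on either strand, to the letters searched.
Cd36: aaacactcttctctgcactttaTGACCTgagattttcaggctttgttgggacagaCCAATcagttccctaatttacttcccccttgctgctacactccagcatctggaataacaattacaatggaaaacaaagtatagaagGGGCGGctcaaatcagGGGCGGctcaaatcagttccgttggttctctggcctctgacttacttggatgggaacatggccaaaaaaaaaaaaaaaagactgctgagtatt
Slc27a1: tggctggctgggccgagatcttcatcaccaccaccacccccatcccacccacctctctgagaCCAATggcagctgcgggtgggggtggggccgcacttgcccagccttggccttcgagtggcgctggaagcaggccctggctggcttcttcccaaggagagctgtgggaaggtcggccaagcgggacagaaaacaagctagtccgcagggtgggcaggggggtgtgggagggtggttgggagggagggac
Slc27a4: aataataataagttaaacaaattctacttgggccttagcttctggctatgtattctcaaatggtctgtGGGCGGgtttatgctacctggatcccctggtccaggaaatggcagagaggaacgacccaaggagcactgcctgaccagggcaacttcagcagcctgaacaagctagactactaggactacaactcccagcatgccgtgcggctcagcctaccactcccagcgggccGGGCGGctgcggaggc
The motifs searched on both strands were the full cAMP response element TGACGTCA, held by 1.55% of 32851 RefSeq promoter windows of the same length, and the shorter TGACG that it contains, held by 17.8%. The nuclear receptor element AGGTCA was in 14% of windows and its direct repeat DR1, which contains it, in 0.0335%. The TATA motif TATAAA was in 12.4%, the motif CCAAT in 33.8%, the GC box GGGCGG in 32.7% and the E-box CACGTG in 6.02%. The Cd36 window held AGGTCA on the opposite strand, 1 CCAAT motif and 2 GC boxes, the Slc27a1 window shown held 1 CCAAT motif, and the Slc27a4 window held 2 GC boxes. The later Slc27a1 starts differed from the first. The window at chr8:71569347-71569596 held 1 GC box, and that at chr8:71570344-71570593 held 3 GC boxes, 1 CCAAT motif and 1 E-box. GC boxes were thus in windows of both paralogs. Neither form of the cAMP response element was in any of these windows, and the shorter form was in the Lmf1 window. These are matches of letters and not binding sites.

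Total counts per library ranged from 16560085 to 19721481, and members had 594 to 331507 counts in eWAT and 59 to 2529 in liver. Values are given as CPM, counts brought to a common library total after TMM scaling within a tissue, and levels of different genes are compared only as FPKM, which is per length. Counts of Crtc1, the targeted gene, gave no sign of its loss. In eWAT Crtc1 was at 32.6 and 33.7 CPM in the Crtc1+/+ libraries and 58.5 and 33.6 CPM in those labelled Crtc1-/-, and in liver at 11.7 and 9.86 against 22.1 and 18.0 CPM. The table gives 1 count for the whole gene, so it does not show whether the edited exons were lost, and the genotype is given throughout as the label. Some eWAT libraries stood apart by tissue. A list of 17 epididymis genes, led by Gpx5, Spag11b and Lcn8, took 9.26% and 10.7% of counts in the eWAT Crtc1+/+ libraries against 0.00239% and 0.00130% in those labelled Crtc1-/-, and 11 hepatocyte genes, led by Alb, took 9.83% in eWAT Crtc1-/- replicate 2 against 0.0719% to 0.597% in the other eWAT libraries. In these bulk samples fewer cells of a type and less RNA per cell cannot be told apart.

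In eWAT, 4 of the 9 members were higher in the libraries labelled Crtc1-/- at an adjusted p under 0.05 (edgeR quasi-likelihood test, Benjamini-Hochberg over 15391 genes), where 6.65% of all genes tested were called higher and 12.2% in either direction. They were Gpihbp1, Angptl4, Fabp4 and Fabp5, with differences of 17.6-fold to 29.7-fold. Lpl, Cd36 and Slc27a1 were 3.68-fold to 7.75-fold higher in value but fell just outside that limit, with edgeR adjusted p-values of 0.0511 to 0.0595. Lmf1 and Slc27a4 had overlapping groups. The median log2 difference over the 9 members was 2.95, against -0.05 over all genes tested.

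**Figure D1:**
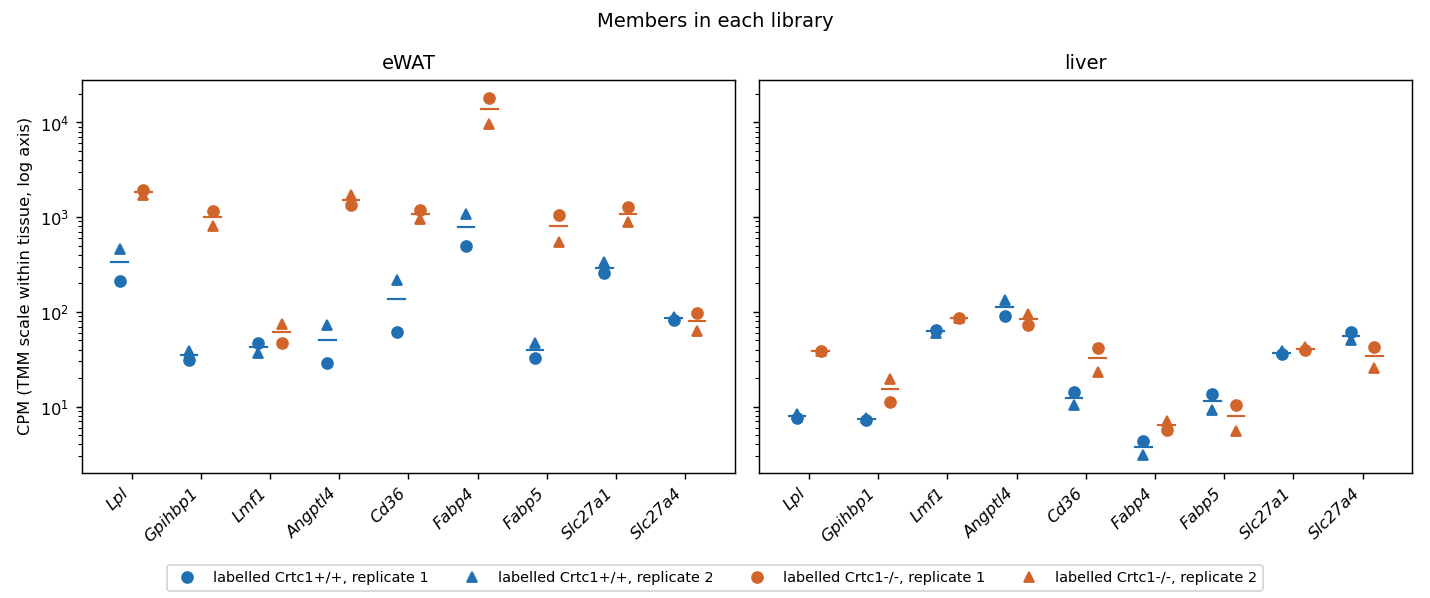
CPM of the 9 members in each library on a log axis (TMM scale within a tissue), eWAT on the left and liver on the right; blue marks libraries labelled Crtc1+/+, orange those labelled Crtc1-/-, the shape gives the replicate, and a short line the mean of 2. In eWAT 7 members lie apart between the labels, among them Fabp4 at 499 and 1079 against 18221 and 9589 CPM, while Lmf1 and Slc27a4 overlap; scaling eWAT on adipocyte markers turns Lpl, Cd36, Slc27a1 and Lmf1 below 0 and moves the median of all genes to -3.41, and relative to that median Lpl is at 2.59 (2.49 on the TMM scale).

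Of the lipase and its partners, Lpl was at 211 and 461 CPM in the eWAT Crtc1+/+ libraries and at 1947 and 1713 CPM in those labelled Crtc1-/-. The groups did not overlap, although the Crtc1+/+ pair was itself spread, with replicate 2 well above replicate 1. The log2 difference was 2.44 ± 0.55 (SE, n = 2 a group; edgeR adjusted p = 0.0519), a 5.44-fold difference in value that did not pass the limit. Gpihbp1, which holds the lipase on the endothelial surface, was at 30.8 and 39.0 CPM against 1170.4 and 814 CPM. Both libraries of each label were close together relative to the gap, and the log2 difference was 4.83 ± 0.45 (SE, n = 2 a group; edgeR adjusted p = 0.0165), or 28.4-fold. Lmf1, the maturation factor of the lipase, was at 47.3 and 36.8 CPM against 47.2 and 75.0 CPM. Its lower Crtc1-/- library lay within the Crtc1+/+ range, and the log2 difference of 0.54 ± 0.35 did not pass the test (edgeR adjusted p = 0.323).

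Angptl4, the inhibitor, was at 28.6 and 73.3 CPM in the eWAT Crtc1+/+ libraries and at 1339 and 1693 CPM in those labelled Crtc1-/-. Its difference was the greatest of the 9 in value, 29.7-fold or 4.89 ± 0.66 on the log2 scale (edgeR adjusted p = 0.0221), and the Crtc1+/+ pair was again spread widely. Unlike the hepatocyte genes, the Angptl4 value was high in both libraries labelled Crtc1-/-. Adipocyte and endothelial markers, given below, also took larger shares of counts in both, and their part in the Angptl4 difference was not tested.

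Among the genes of uptake, Cd36 was at 61.4 and 215 CPM against 1190.3 and 953 CPM in eWAT. The groups were apart, but the Crtc1+/+ libraries also lay far from each other, and the log2 difference was 2.95 ± 0.71 (edgeR adjusted p = 0.0595). Fabp4 had the highest FPKM of the members in every eWAT library, and was at 499 and 1079 CPM against 18221 and 9589 CPM. It took 1.79% of all counts in eWAT Crtc1-/- replicate 1, more than any other gene there, and the log2 difference was 4.14 ± 0.82 (edgeR adjusted p = 0.0409), or 17.6-fold.

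Fabp5 was at 32.5 and 46.9 CPM in the eWAT Crtc1+/+ libraries and at 1051 and 543 CPM in the others. The gap between labels was far wider than that within either pair, and the log2 difference was 4.33 ± 0.53 (edgeR adjusted p = 0.0194), or 20.1-fold. Slc27a1 was at 255 and 332 CPM against 1283 and 880.1 CPM, a log2 difference of 1.88 ± 0.42 (edgeR adjusted p = 0.0511). Its paralog Slc27a4 was at 82.4 and 89.2 CPM against 96.7 and 62.3 CPM, so that the Crtc1-/- libraries lay on both sides of the Crtc1+/+ pair, with a log2 difference of -0.11 ± 0.32 (edgeR adjusted p = 0.830).

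By the limit that the study's methods used, a log2 difference over 1 with an unadjusted p under 0.01, 7 of 9 members were higher in eWAT, where 8.37% of all genes tested were. The same 7 had groups that did not overlap, as did 31.3% of all genes in that direction. The calls rested on both Crtc1+/+ eWAT libraries. Without replicate 1 or without replicate 2 of that group they were all lost, as was every other call in the table. Each of these fits leaves 1 library in that group, so the sizes of the differences are given. The log2 differences without replicate 1 and without replicate 2 were 4.66 and 5.03 for Gpihbp1, 4.39 and 5.75 for Angptl4, 4.07 and 4.64 for Fabp5 and 3.67 and 4.83 for Fabp4. Without Crtc1-/- replicate 2, the library high in hepatocyte genes, 6 members were called (12.3% of all genes), and without Crtc1-/- replicate 1 there were 7 (19% of all genes).

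On the per-length FPKM scale, Fabp4 had the highest level of the members in eWAT Crtc1+/+, at 1782 ± 901 (mean ± SD, n = 2), and stood clear of Slc27a1 at 112 ± 17.6. From Slc27a1 downwards every neighbour in the order overlapped the next: Lpl (95.4 ± 48.1), Gpihbp1 (60.8 ± 9.0), Cd36 (55.8 ± 42.9), Fabp5 (54.9 ± 13.1), Angptl4 (32.2 ± 19.4), Lmf1 (28.9 ± 7.56) and Slc27a4 (24.8 ± 0.799). In the libraries labelled Crtc1-/- the order of FPKM was Fabp4 (25731 ± 14637), Gpihbp1 (1410.5 ± 551), Fabp5 (911 ± 523), Angptl4 (765 ± 23.0), Lpl (424 ± 94.0), Cd36 (346 ± 100.5), Slc27a1 (332 ± 128), Lmf1 (37.1 ± 9.77) and Slc27a4 (18.9 ± 8.11). There the 7 members that did not overlap between labels were at 241 FPKM or more in each library, and Lmf1 and Slc27a4 at 44.0 or less. Angptl4 was thus below Lpl in both Crtc1+/+ libraries (18.5 and 45.9 against 61.4 and 129 FPKM) and above it in both labelled Crtc1-/- (749 and 781 against 490.3 and 357 FPKM).

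Markers of the cell types that make these genes moved with the label in eWAT. All 15 adipocyte markers were higher in value in the libraries labelled Crtc1-/- and 10 were called, with a median log2 difference of 3.65. Together they took 0.175% and 0.247% of counts in Crtc1+/+ against 2.42% and 1.22%, led by Cfd, Cidec and Adipoq. Adipoq, which encodes adiponectin, was at 124 and 226 CPM against 2803 and 1588 CPM. Of 13 endothelial markers 12 were called higher, with a median of 3.35, and the list took 0.0509% and 0.0493% against 0.677% and 0.383%. Pecam1, a junction protein of endothelium, was at 87.2 and 83.9 CPM against 1180.3 and 837 CPM. Of 12 macrophage markers 3 were called higher (Adgre1, Csf1r and Cd163), and the list went from 0.0460% and 0.0230% to 0.171% and 0.0743% of counts. All 17 epididymis markers were called lower. With the epididymis and hepatocyte list genes taken out of the table before scaling, 6 members were called in eWAT, as were 13.2% of all genes. The label and these shares cannot be told apart in these 4 libraries.

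**Figure D2:**
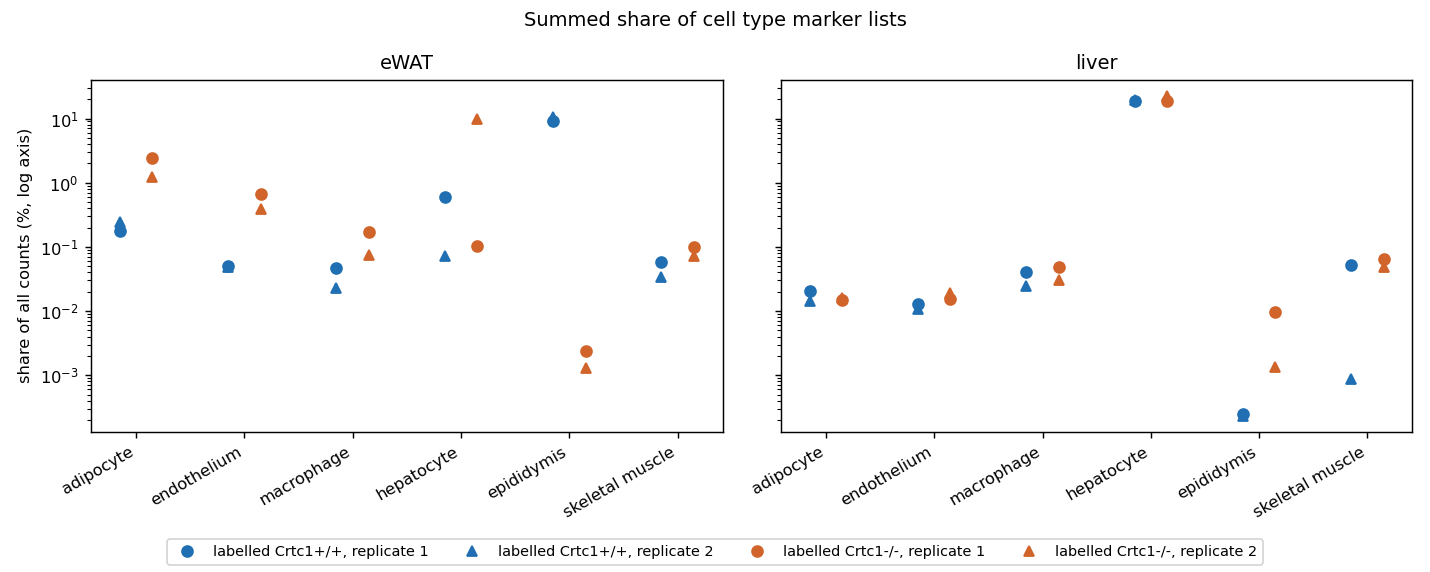
Share of all counts, in percent on a log axis, taken by each list of cell type markers in each library, eWAT on the left and liver on the right, with colours for the label and shapes for the replicate. In eWAT the adipocyte and endothelium shares are higher in both libraries labelled Crtc1-/- and the epididymis share is above 9% only in the Crtc1+/+ libraries, while in liver the adipocyte share lies between 0.0141% and 0.0202% in all 4.

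The members were therefore also read against the adipocyte markers. Per 100 CPM of the adipocyte list, Lpl was at 13.7 and 20.5 in Crtc1+/+ and 7.92 and 11.4 in the libraries labelled Crtc1-/-, so that it was lower, while Gpihbp1 was at 2.0 and 1.73 against 4.76 and 5.43 and Angptl4 at 1.86 and 3.26 against 5.45 and 11.3, so that both were higher. Fabp4 was at 32.4 and 47.9 against 74.2 and 64.0, and Fabp5 at 2.11 and 2.08 against 4.28 and 3.63. Cd36 overlapped, at 3.99 and 9.54 against 4.84 and 6.36. Slc27a1, at 16.6 and 14.8 against 5.22 and 5.87, and Slc27a4, at 5.35 and 3.96 against 0.393 and 0.416, were lower. Lmf1 was lower too, at 3.07 and 1.63 against 0.192 and 0.500.

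With eWAT libraries scaled on these markers, the median of all genes moved to -3.41, Gpihbp1 (1.45) and Angptl4 (1.71) were again called higher by edgeR, and Slc27a1 (-1.50), Lmf1 (-2.77) and Slc27a4 (-3.52) were called lower. Fabp4 (0.78) and Fabp5 (0.92) were higher in value, and Lpl (-0.82) and Cd36 (-0.27) lower, with none of these 4 passing the test. Relative to that median, Angptl4 was 5.12, Gpihbp1 4.86, Fabp5 4.33, Fabp4 4.19, Cd36 3.14, Lpl 2.59, Slc27a1 1.91 and Lmf1 0.64 above it, and Slc27a4 (-0.11) lay next to it. Scaled on the endothelial markers instead, Gpihbp1, itself an endothelial gene, was 1.15 higher and still called, while Angptl4 (1.30) was not. Of all genes tested, 87.4% were called on the adipocyte scale and 89.3% on the endothelial one.

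**Figure D3:**
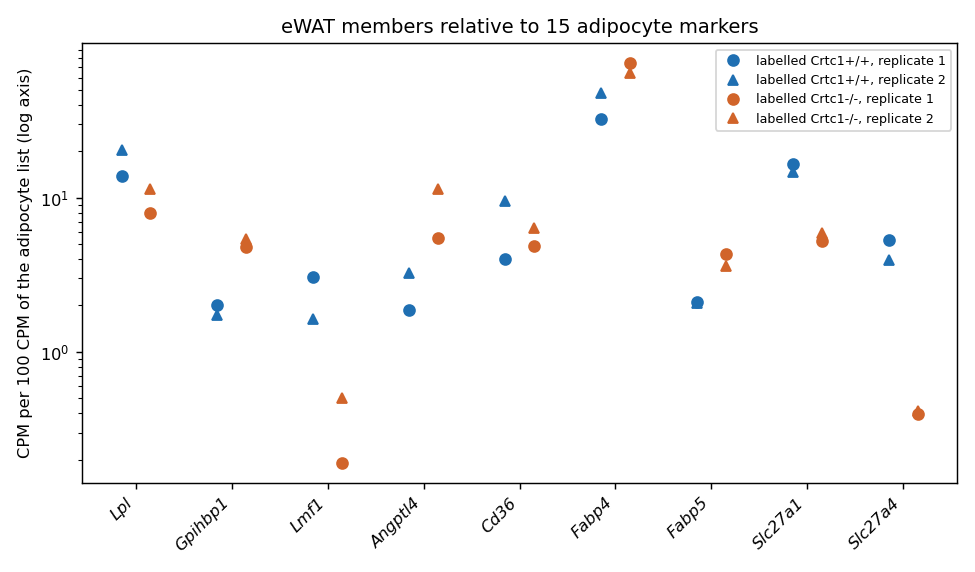
CPM of each member per 100 CPM summed over 15 adipocyte markers in the 4 eWAT libraries, on a log axis, with blue for Crtc1+/+, orange for the label Crtc1-/- and the shape for the replicate. Gpihbp1, Angptl4, Fabp4 and Fabp5 sit higher in both orange libraries, Cd36 overlaps, and Lpl, Lmf1, Slc27a1 and Slc27a4 sit lower.

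In liver, Lpl was the only member called in the main edgeR fit. It was at 7.55 and 8.34 CPM in the Crtc1+/+ libraries and at 38.4 and 38.5 CPM in those labelled Crtc1-/-, a tight pair on either side. The log2 difference was 2.27 ± 0.26 (SE, n = 2 a group; edgeR adjusted p = 0.0332), or 4.83-fold, and Lpl was 1 of 10 genes called among 11707 tested (0.0854%, with 0.0598% called higher). Cd36 was at 14.1 and 10.3 CPM against 41.1 and 23.3 CPM, apart but with a wide Crtc1-/- pair (1.40 ± 0.33, edgeR adjusted p = 0.134). It was called higher by DESeq2 (adjusted p = 0.0086) and by edgeR without the low-count filter (adjusted p = 0.0222). By the study's limit, Lpl and Cd36 passed in liver, where 2.84% of all genes were higher and 4.27% changed in either direction.

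The remaining members of liver passed neither limit. Gpihbp1 was at 7.29 and 7.61 CPM against 11.2 and 19.6 CPM (1.05 ± 0.33, edgeR adjusted p = 0.190), and Fabp4 at 4.31 and 3.10 against 5.66 and 7.06 CPM (0.78 ± 0.34, edgeR adjusted p = 0.284). Lmf1 was at 64.1 and 60.4 CPM against 85.7 and 85.9 CPM, a small but even gap (0.46 ± 0.24, edgeR adjusted p = 0.345). On the FPKM scale the same gene was at 37.5 and 34.4 against 59.7 and 68.8, and limma on log2(FPKM + 0.1) gave a difference of 0.84, so the 2 deposited measures of Lmf1 differed in size. Slc27a1 was almost level, at 35.6, 38.7, 39.4 and 42.6 CPM (0.14 ± 0.24). Another 3 members were lower in value in the libraries labelled Crtc1-/-. Angptl4 was at 89.9 and 133 CPM against 73.1 and 95.2 CPM and overlapped (-0.40 ± 0.29, edgeR adjusted p = 0.482), as did Fabp5 at 13.5 and 9.29 against 10.5 and 5.49 CPM (-0.51 ± 0.36, edgeR adjusted p = 0.478). Slc27a4, at 60.6 and 50.7 against 42.4 and 25.3 CPM, did not overlap (-0.72 ± 0.30, edgeR adjusted p = 0.267). In all, 6 of 9 members were higher without overlap, where 25.8% of all genes were, and 1 was lower without overlap, where 26.4% were.

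The Lpl call in liver needed both Crtc1+/+ libraries. Its edgeR adjusted p was 0.0969 without liver Crtc1+/+ replicate 1 and 0.407 without replicate 2, with log2 differences of 2.19 and 2.34, and over all 14 alternatives it ran from 1.66e-10 to 0.479. Without liver Crtc1-/- replicate 1, 5 members were called (Lpl, Gpihbp1, Cd36, Fabp5 and Slc27a4), and 12.5% of all genes. Of 15 adipocyte markers 7 were tested in liver and edgeR, DESeq2 and limma called 0 (2 had an unadjusted p under 0.05 in edgeR). Of these 7, 3 were higher in value and 4 lower (median log2 difference -0.0731). Adrb3 was at 0.719 and 0.577 CPM in Crtc1+/+ and 2.73 and 1.69 CPM in the others (1.76 ± 0.48, edgeR adjusted p = 0.162). Cidec went the other way, at 45.1 and 15.7 against 16.6 and 12.9 CPM (-1.04 ± 0.44, edgeR adjusted p = 0.267). Adipoq, which was not tested, was at 0.411 and 0.105 against 0.629 and 0.350 CPM. The list took 0.0202% and 0.0141% against 0.0149% and 0.0160% of counts, mostly through Mrap, at 120.3 and 104.9 against 97.1 and 117 CPM, and 1 to 5 of its genes were at 0 in each library. Of the 17 epididymis markers 5 were tested in liver, and all 5 had higher values under the label Crtc1-/- (median log2 difference 4.54). Of these edgeR and limma called 0 and DESeq2 2, and 5 had an unadjusted p under 0.05 in edgeR. Gpx5 was at 1.28 and 1.05 against 51.2 and 7.53 CPM, and the list took 0.000248% and 0.000235% against 0.00966% and 0.00135% of counts. Of 13 endothelial markers 12 were higher in value in liver but none was called by edgeR (4 had an unadjusted p under 0.05, and DESeq2 and limma called 0), from 0.0129% and 0.0107% to 0.0152% and 0.0188% of counts. Skeletal muscle, another tissue rich in Lpl, was lowest in Crtc1+/+ replicate 2, with its 10 markers at 0.000858% of counts against 0.0479% to 0.0657% in the other 3 liver libraries. All 10 had higher values under the label Crtc1-/- (median log2 difference 0.9972), and edgeR, DESeq2 and limma called 0 (0 had an unadjusted p under 0.05 in edgeR). The part of these markers in the liver Lpl difference was not tested.

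By FPKM, Angptl4 stood first in liver Crtc1+/+ (62.2 ± 16.4, mean ± SD, n = 2), followed by Lmf1 (36.0 ± 2.14) and, overlapping one another, Slc27a4 (14.2 ± 1.91), Fabp5 (14.0 ± 3.73) and Slc27a1 (12.7 ± 0.474). Gpihbp1 (11.6 ± 0.361), Fabp4 (7.43 ± 1.77), Cd36 (4.34 ± 1.11) and Lpl (2.0 ± 0.127) followed without overlap between neighbours. In the libraries labelled Crtc1-/-, Lmf1 (64.2 ± 6.43) was above Angptl4 (48.6 ± 9.76), Gpihbp1 was at 24.5 ± 9.49, and Slc27a1 (14.2 ± 0.813), Fabp4 (12.9 ± 1.97), Cd36 (12.2 ± 4.62), Lpl (10.0 ± 0.205), Fabp5 (9.98 ± 4.33) and Slc27a4 (8.88 ± 3.03) overlapped from one to the next. Lpl, the lowest member in Crtc1+/+ liver, lay within the ranges of Cd36, Fabp5 and Slc27a4 there.

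**Figure D4:**
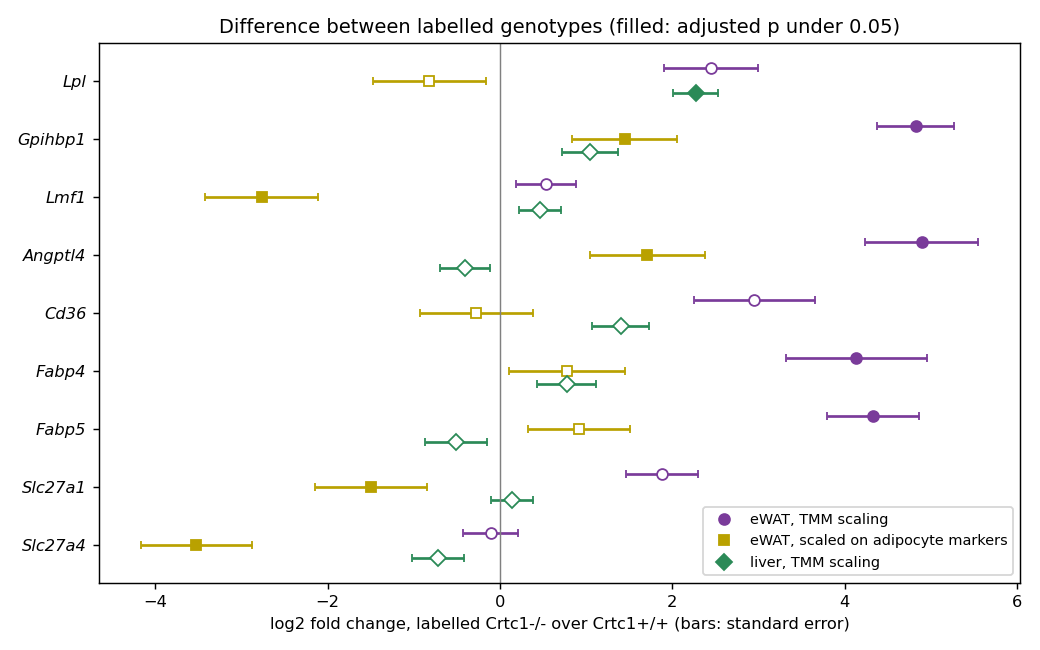
Log2 difference of each member between libraries labelled Crtc1-/- and Crtc1+/+, with its standard error, in eWAT scaled by TMM (circles), in eWAT scaled on adipocyte markers (squares) and in liver (diamonds), filled where the edgeR adjusted p is under 0.05. Lpl has nearly the same value in both tissues on the TMM scale (2.44 and 2.27), while Angptl4 and Fabp5 point up in eWAT and down in liver; on the adipocyte scale, where the median of all genes is -3.41, Lpl, Cd36, Slc27a1 and Lmf1 turn to the other side of 0 but stay above that median.

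Whether the difference between labels itself differed by tissue was tested in 1 fit of all 8 libraries. For 3 members it did at an adjusted p under 0.05, where 6.94% of 15587 genes were called and 3.78% in the direction of a greater difference in eWAT. The log2 difference was greater in eWAT by 5.24 ± 0.76 for Angptl4 (edgeR adjusted p = 0.0141), by 4.73 ± 0.66 for Fabp5 (edgeR adjusted p = 0.0131) and by 3.69 ± 0.51 for Gpihbp1 (edgeR adjusted p = 0.0128). Fabp4 (3.26 ± 0.84, edgeR adjusted p = 0.0632) and Slc27a1 (1.65 ± 0.44, edgeR adjusted p = 0.0688) lay just outside. For Lpl the 2 tissues gave nearly the same value, with an interaction of 0.10 ± 0.59 (edgeR adjusted p = 0.978) that was -0.17 under library-size scaling. For Cd36 it was 1.48 ± 0.83, for Slc27a4 0.51 ± 0.45 and for Lmf1 0.02 ± 0.47, none of them called. The 3 interaction calls were all lost without liver Crtc1+/+ replicate 1 or without replicate 2. Most of them were lost without any 1 of eWAT Crtc1+/+ replicates 1 and 2 and liver Crtc1-/- replicates 1 and 2. Calls over all genes also fell in each of these fits, which leave 1 library in a group. With any 1 library left out the interaction was 3.35 to 4.14 for Gpihbp1, 4.73 to 6.06 for Angptl4 and 4.32 to 5.29 for Fabp5. The part of the cell type markers in these interactions was not tested.

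The tissues themselves were compared within each label. In Crtc1+/+, 7 of 9 members differed (54.9% of all genes tested did, 35% higher and 19.8% lower in eWAT). Fabp4 was higher in eWAT by 6.51 ± 0.73 on the log2 scale, Lpl by 4.18 ± 0.47, Cd36 by 2.27 ± 0.62, Slc27a1 by 1.76 ± 0.32 and Gpihbp1 by 1.01 ± 0.36, while Angptl4 (-2.35 ± 0.53) and Lmf1 (-1.78 ± 0.34) were lower. Fabp5 (0.58 ± 0.45) and Slc27a4 (-0.59 ± 0.32) were not called. In the libraries labelled Crtc1-/-, 8 members differed (27.8% of all genes, 18.9% higher and 8.89% lower), with Fabp4 at 9.77 ± 0.84, Fabp5 at 5.31 ± 0.54, Gpihbp1 at 4.70 ± 0.41, Lpl at 4.28 ± 0.47, Cd36 at 3.75 ± 0.65, Slc27a1 at 3.41 ± 0.34 and Angptl4 at 2.89 ± 0.54 higher in eWAT and Lmf1 at -1.76 ± 0.34 lower. Without liver Crtc1+/+ replicate 1 or without replicate 2, 4 members were called in Crtc1+/+ (26% and 27.4% of all genes), and without liver Crtc1-/- replicate 2, 5 were called in the others (10% of all genes). Angptl4 thus lay on opposite sides of 0 under the 2 labels. These values depend on the scaling, since the median of all genes was 0.61 in Crtc1+/+ and 0.20 in the others, and 2.0 and 1.33 when only library size was used. The eWAT libraries of the 2 labels also differed in marker shares. Epididymis markers took 9.26% and 10.7% of counts against 0.00239% and 0.00130%, and adipocyte markers 0.175% and 0.247% against 2.42% and 1.22%. The part of these shares in the tissue contrasts, that of Angptl4 included, was not tested.

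Because a ratio of 2 genes within a library does not depend on the scaling, ratios of FPKM were taken for pairs of members, chosen after their values were known. With 2 libraries against 2 the smallest p that an exact permutation test can give is 0.333, so the ratios are given by value. Cell type marker shares moved with the label in eWAT, and their part in these ratios was not tested. The ratio of Angptl4 to Lpl, inhibitor to enzyme, was 0.301 and 0.354 in eWAT Crtc1+/+ and 1.53 and 2.19 in the libraries labelled Crtc1-/-, a 5.60-fold higher ratio. In liver it ran the other way, from 26.5 and 35.3 to 4.23 and 5.47, or 6.36-fold lower. Neither tissue had overlapping groups.

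The ratio of Gpihbp1 to Lpl, anchor to enzyme, showed the same opposition, at 0.887 and 0.519 against 3.67 and 2.86 in eWAT and 5.92 and 5.65 against 1.80 and 3.07 in liver. The ratio of Slc27a1 to Slc27a4 was 4.11 and 4.91 against 17.2 and 18.3 in eWAT, 3.95-fold higher, and 0.797 and 1.02 against 1.24 and 2.20 in liver. The ratio of Fabp4 to Fabp5 was 25.1 and 37.7 against 28.2 and 28.4 in eWAT, where the Crtc1-/- values lay between the Crtc1+/+ ones. In liver it was 0.523 and 0.546 against 0.880 and 2.06, so that Fabp5 was above Fabp4 in all but 1 liver library. The ratio of Lmf1 to Lpl was lower in both tissues, from 0.558 and 0.182 to 0.0617 and 0.123 in eWAT and from 19.6 and 16.5 to 6.05 and 6.77 in liver.

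**Figure D5:**
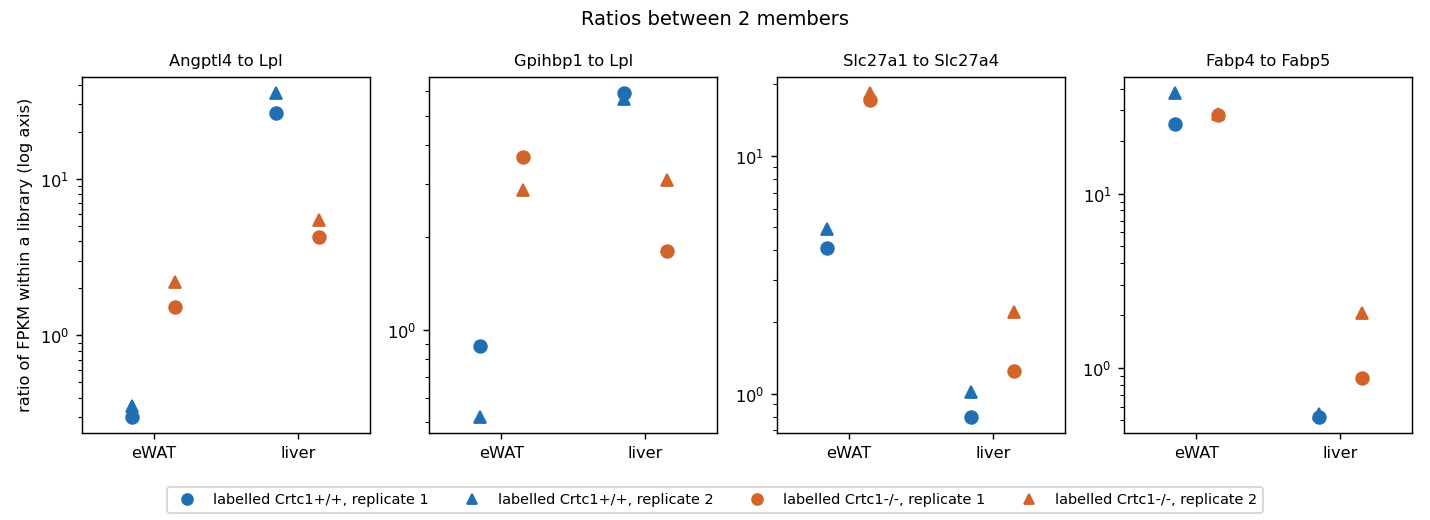
Ratio of FPKM between 2 members within each library, on log axes that differ between the 4 panels, for eWAT and liver, with blue for Crtc1+/+, orange for the label Crtc1-/- and the shape for the replicate. Angptl4 to Lpl and Gpihbp1 to Lpl are higher under that label in eWAT and lower in liver, Slc27a1 to Slc27a4 is at 17.2 and 18.3 in the eWAT libraries labelled Crtc1-/-, and Fabp4 to Fabp5 overlaps in eWAT.

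Other genes of lipase control were described from a list of 15. In eWAT 2 were called higher and 1 lower, with a median log2 difference of 2.26. Pcsk6, a proprotein convertase that can cleave lipase, was at 7.71 and 6.43 CPM against 67.3 and 98.9 CPM (3.55 ± 0.36, edgeR adjusted p = 0.0169), and Lrp1, an endocytic receptor for lipoprotein remnants, was at 130.2 and 111 against 449.7 and 595 CPM (2.11 ± 0.35, edgeR adjusted p = 0.0289). Lipg, the endothelial lipase, was at 47.1 and 102 CPM against 3.52 and 3.47 CPM, in the opposite direction to Lpl (-4.41 ± 0.51, edgeR adjusted p = 0.0184). In liver edgeR called 0 of the list (6 had an unadjusted p under 0.05, DESeq2 called 3 and limma 0), and Lipg was at 3.44 and 6.87 against 1.36 and 1.81 CPM (-1.70 ± 0.45, edgeR adjusted p = 0.155). Apoc2, the activator of the lipase, was at 459.6 and 429 against 589.8 and 573 CPM in liver (0.39 ± 0.24). In eWAT it followed the hepatocyte genes, at 414 CPM in Crtc1-/- replicate 2 and at most 20.1 CPM in each of the other eWAT libraries.

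Of 21 further genes of fatty acid uptake and binding, 16 were tested in eWAT and 3 were called, all higher, with a median log2 difference of 0.67. In value 11 were higher and 5 lower. Cavin1 and Cav1, which build the caveolae of adipocytes and endothelium, were at 221 and 215 against 3666 and 2636 CPM (3.85 ± 0.49, edgeR adjusted p = 0.0199) and at 105 and 148 against 1155 and 659 CPM (2.84 ± 0.47, edgeR adjusted p = 0.0296). Slc27a3, another acyl-CoA synthetase of the same family as Slc27a1, was at 4.19 and 3.22 against 20.9 and 13.1 CPM (2.20 ± 0.47, edgeR adjusted p = 0.0476). Acsl3 (-2.55 ± 0.58, edgeR adjusted p = 0.0535) and Acsl4 (-2.31 ± 0.55, edgeR adjusted p = 0.0597) were lower in value. They fell just outside that limit and passed the study's limit. The hepatic transporters Slc27a2 and Slc27a5 and the liver binding protein Fabp1 were high in 1 eWAT library, Crtc1-/- replicate 2, with Fabp1 at 55.9, 6.22, 9.07 and 1539.9 CPM. These hepatic genes are part of the eWAT median above. In liver 15 of the list were tested and edgeR, DESeq2 and limma called 0 (3 had an unadjusted p under 0.05 in edgeR), with Fabp1 at 1784 and 1572 against 1429.9 and 2098 CPM, Slc27a2 at 1378 and 1579 against 1120.0 and 869.6 CPM and Slc27a5 at 812 and 818 against 845 and 526 CPM.

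Of 9 transcriptional regulators known to act on these genes, among them the coactivator Ppargc1a, 4 were called higher in eWAT. They were Pparg, the master regulator of adipocytes (14.5 and 24.1 against 254 and 188 CPM, 3.52 ± 0.41, edgeR adjusted p = 0.0184), Cebpa (92.2 and 95.3 against 853 and 751 CPM), the liver X receptor gene Nr1h3 (24.1 and 15.2 against 197 and 222 CPM) and the shared partner receptor Rxra (82.2 and 73.1 against 325 and 451 CPM). Ppara was at 7.03, 6.95 and 6.16 CPM in 3 eWAT libraries and at 50.8 CPM in Crtc1-/- replicate 2. Its log2 difference of 2.02, which rests on that library, was the median of the 9. In liver edgeR, DESeq2 and limma called 0 of the 9, and 0 had an unadjusted p under 0.05 in edgeR. There Pparg was at 6.42 and 5.30 against 10.2 and 7.0 CPM (0.56 ± 0.32) and Ppara at 56.3 and 78.2 against 94.3 and 82.1 CPM (0.39 ± 0.27). Both were thus higher in value without overlap, and their part in the liver Lpl difference was not tested.

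Among 11019 other genes, those whose log2 CPM followed each member most closely over the 8 libraries were named as a description. The 8 points share 2 tissues and 2 labels, so that r is high for many genes. Gpihbp1 was nearest to Robo4 (Pearson r = 0.9989), Arap3 (0.9985) and Cd274 (0.9970), of which Robo4 is an endothelial receptor. Lpl was nearest to Cd93 (0.9979), Stard9 (0.9938) and Celf2 (0.9914), Cd36 to the beta-3 adrenergic receptor gene Adrb3 (0.9859), Jdp2 (0.9790) and Wwtr1 (0.9755), and Fabp4 to A530016L24Rik (0.9969) and Cav1 (0.9968). Fabp5 was nearest to Dll1 (0.9936), Jup (0.9925) and Cyp4b1 (0.9920), Angptl4 to Sh3bp5 (0.9855), Palmd (0.9801) and Aifm2 (0.9790), and Slc27a1 to Fads3 (0.9966), Tnc (0.9962) and Trarg1 (0.9959). Lmf1 was nearest to Sra1 (0.9947), Timm17b (0.9941) and Ccdc107 (0.9937), and Slc27a4 to Trappc12 (0.9813), Adat2 (0.9633) and Zgpat (0.9510).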

How the data were processed

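The authors sequenced 8 libraries at BGI and deposited estimated (expected) counts and FPKM per gene. Their processing notes name HISAT, Bowtie2 and GRCm38.p6, and the counting tool and annotation are not given in the sources used here. Of the deposited expected counts, 5.44% to 9.98% per library were not whole (among the members only Slc27a1, in 4 libraries), and all were rounded. The deposited FPKM were used for levels and ratios.

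Members were matched by symbol, and they and every gene list were chosen with earlier results of these data known. Within a tissue, edgeR 4.0.16 (R 4.3.3, filterByExpr, TMM, quasi-likelihood F test) compared the labels over all genes, with Benjamini-Hochberg adjustment at 0.05, and 1 fit of all 8 libraries gave the interaction and tissue contrasts. Standard errors are the log2 difference over the root of F. The study's limit came from its methods, which used limma. Named genes were all members, Crtc1, called genes of the related lists (up to 4 a list and tissue), 7 genes fixed by role, up to 3 markers a list and the 3 genes nearest each member (mean log2 CPM of at least 1, prior count 2), and called markers were named after their values were seen. Of the genes so named, 2 are not reported here. Alternatives used DESeq2 1.42.0, limma 3.58.1 on log2(FPKM + 1) and log2(FPKM + 0.1), other scalings and filters, and leaving out each library, where the lone library of a group was assumed to vary like the other groups. Scripts were tested on simulated data.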

Additional observations from a re-analysis of the deposited data

Results flagged for a closer look

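For 3 members the difference between labels differed between tissues in the test of that difference (edgeR, 8 libraries, adjusted p under 0.05). The log2 difference was greater in eWAT than in liver by 3.69 for Gpihbp1, which lay between 3.35 and 4.14 when any 1 library was left out, by 5.24 for Angptl4 (4.73 to 6.06) and by 4.73 for Fabp5 (4.32 to 5.29). Over all 17 alternatives the adjusted p ran from 8.25e-09 to 0.0648 for Gpihbp1, from 3.06e-11 to 0.066 for Angptl4 and from 3.72e-09 to 0.0645 for Fabp5. Angptl4 and Fabp5 were higher in both eWAT libraries labelled Crtc1-/- and lower in mean value in liver, where their groups overlapped. Adipocyte and endothelium marker shares moved with the label in eWAT, and their part in these differences was not tested.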

How the results depend on the processing

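With 2 libraries a group (the spread estimated by edgeR, as a common coefficient of variation, was 0.517 for eWAT libraries and 0.253 for liver), calls moved readily with the tool and the libraries, and the cause was not tested. In eWAT the 4 members called became 7 with DESeq2 and 7 with all 8 libraries in 1 fit, and 0 to 7 when 1 library was left out (0 without either Crtc1+/+ library). Past the study's limit were 7, which became 4 with limma on log2(FPKM + 0.1), 2 scaled on adipocyte markers, 3 scaled on endothelium markers, and 3 to 7 with 1 library left out. In liver the 1 member called became 2 with DESeq2, 2 without the low-count filter, 0 with limma on either pseudocount, 0 with all 8 libraries in 1 fit, and 0 to 5 with 1 library left out; the 2 past the study's limit became 1 with all 8 libraries and 1 to 4 with 1 left out. The 3 interactions became 5 with DESeq2 and 0 to 5 with 1 library left out, and the tissue calls went from 7 to between 4 and 7 in Crtc1+/+ and from 8 to between 5 and 8 in the label Crtc1-/-. Of all genes tested, the share called in eWAT was 30% with DESeq2, 24.8% with all 8 libraries, 87.4% on adipocyte and 89.3% on endothelium scaling, and 0% to 19% with 1 library left out; in liver it was 2.66% with DESeq2, 1.89% without the filter, 0% with limma and 0.00817% to 12.5% with 1 library left out; for the interaction it was 13.2% with DESeq2, 16.3% and 15.3% with limma, 4.52% by library size and 0% to 13.9% with 1 library left out; for the tissue contrasts it went down to 26% in Crtc1+/+ and 9.17% in the label Crtc1-/- with 1 library left out, and up to 45.7% in the latter by library size.

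Directions turned as follows. Scaled on adipocyte and on endothelium markers, eWAT gave -0.82 and -1.20 for Lpl, -2.77 and -3.03 for Lmf1, -0.27 and -0.71 for Cd36, and -1.50 and -1.80 for Slc27a1. Under these scalings the all-gene median was -3.41 and -3.69, and relative to it the values were 2.59 and 2.49 for Lpl, 0.64 and 0.66 for Lmf1, 3.14 and 2.98 for Cd36, and 1.91 and 1.89 for Slc27a1. Slc27a4 ran from -0.45 to 0.14 with 1 library left out. The Lpl interaction was -0.082 with upper-quartile scaling, -0.17 with library size, -0.0008 with a mean count of at least 50 and -0.35 to 0.75 with 1 library left out. The Lmf1 interaction was -0.21, -0.32 and -0.10 under the same 3 settings, -0.33 with limma at either pseudocount, and -0.33 to 0.40 with 1 library left out. Slc27a4 between tissues was 0.81 in Crtc1+/+ and 1.09 in the label Crtc1-/- by library size, and in the latter 0.0012 and 0.0006 with limma, and -0.42 to 0.35 with 1 library left out. The liver ratio of Lmf1 to Lpl, -1.49 on log2 FPKM, was -1.81 from counts, a setting added after the data were seen.

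Replicate numbers are shared by the labels, but same-numbered libraries deviated together with r of -0.0952 in eWAT, 0.0734 in liver, and 0.27 and 0.0132 across tissues. The labels do not tie the numbers to mice, and since the study's methods took both tissues from the same mice, whether the numbers pair the tissues is not settled. With the replicate block, the eWAT calls became 0 and those past the study's limit 3, the tissue calls in Crtc1+/+ went from 7 to 5 (Gpihbp1 and Cd36 were lost), the share of all genes called was 0% in eWAT and 0.7% in liver, and the Lmf1 interaction was -0.034.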

Other observations

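Of 10 skeletal muscle markers, edgeR called 1 higher in eWAT, the actin gene Acta1 (175.9 and 88.3 against 831 and 523 CPM), and 0 in liver, where all 10 were higher in value (median log2 difference 0.9972), 0 had an unadjusted p under 0.05 and DESeq2 and limma called 0. Of 7 brown fat markers, 5 were tested in eWAT and edgeR and limma called 0 (1 had an unadjusted p under 0.05, and DESeq2 called 1), and in liver 1 of 4 was called lower, the fatty acid elongase Elovl3 (log2 difference -4.21 ± 0.55, edgeR adjusted p = 0.0418). Both were named after their values were seen.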
